A study of Arabidopsis with 8 samples.

Results

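ZAT10 (AT1G27730, also called STZ) and ERF4 (AT3G15210) are a pair of stress-induced transcription factors of Arabidopsis that act mainly as repressors. Both genes were found by matching their locus names to the probe sets of the Affymetrix ATH1 array. ZAT10 was matched through the platform annotation, where it is listed as STZ, and ERF4 through the table of called genes that accompanied the study, because the platform annotation used here did not name its probe set. Each gene had 1 probe set, so 2 of the 22746 probe sets of genes are described.

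Leaf RNA was measured on 8 arrays in 4 groups of 2. The nNOS drought group came from Col-0 plants that carried the rat neuronal nitric oxide synthase gene (nNOS) under the constitutive CaMV 35S promoter and were left without water, and the nNOS control group from well-watered plants of the same kind. The WT drought and WT control groups were Col-0 plants without the transgene, unwatered or watered. The plants were 2 weeks old when watering stopped, and leaves of 20 seedlings or more went into each sample.

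The labels put the harvest at 14 days without water, whereas the methods of the study give a shorter time. RNA of a pair of transgenic lines, nNOS-2 and nNOS-25, was pooled before labelling according to the design text, although the extraction notes name nNOS-25 alone, so differences between lines cannot be seen. Rat nNOS has no probe set on this plant array, and the transgene itself could not be checked. The 2 arrays of a group are labelled as replicates, but no label says that they came from separately grown plants, so that p-values here describe only how far replicate samples of this series lie apart, which may be technical.

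ZAT10 is a C2H2 zinc finger protein and ERF4 belongs to the ethylene response factor family of AP2-type DNA-binding proteins. Both carry an EAR motif, a short leucine-rich stretch that recruits corepressors such as TOPLESS and so lowers transcription of the genes they bind. ZAT10 transcripts are known to rise quickly after salt, cold, drought, high light and wounding, and plants with more ZAT10 have been reported to express more genes of antioxidant defence. ERF4 transcripts are known to respond to ethylene, jasmonate and abscisic acid, and plants with more ERF4 have been reported to express less of the defensin gene PDF1.2.

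All values below are normalized log2 signals or differences between them, so a difference of 1 is a doubling. ZAT10 signals were 8.82 and 8.78 on the nNOS drought arrays, 8.64 and 8.65 on the nNOS control arrays, 8.43 and 8.55 on the WT drought arrays, and 7.57 and 7.43 on the WT control arrays. The WT control arrays thus stood alone at the bottom, and the other groups lay within a narrow band above them without overlap between any of the groups. On every array ZAT10 was brighter than between 80.7% and 91.8% of all probe sets.

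ERF4 signals were 8.35 and 8.42 on the nNOS drought arrays, 9.70 and 9.81 on the nNOS control arrays, 7.84 and 7.85 on the WT drought arrays, and 8.33 and 8.39 on the WT control arrays. Here the nNOS control arrays stood alone at the top and the WT drought arrays at the bottom, while the nNOS drought and WT control arrays overlapped. ERF4 was brighter than between 84.5% and 95.9% of all probe sets.

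**Figure D1:**
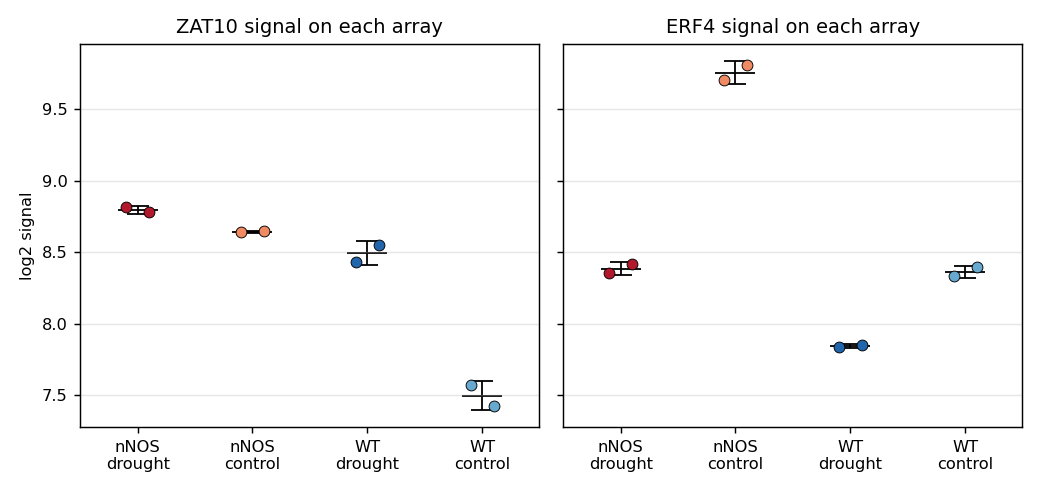
Normalized log2 signal of ZAT10 (left) and ERF4 (right) on the 8 arrays, by group (x axis); points are arrays, horizontal lines are group means and bars are 1 SD (n = 2). ZAT10 is low only on the WT control arrays (mean 7.50), whereas ERF4 is high only on the nNOS control arrays (mean 9.76).

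Replicate arrays lay close together for both genes. The SD within groups, pooled over the 4 groups, was 0.0672 for ZAT10 and 0.0502 for ERF4, against a median of 0.120 over all probe sets. The group means spanned 1.301 for ZAT10, more than for 97.91% of probe sets, and 1.91 for ERF4, more than for 99.62%.

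Without water stress, both genes were higher in the nNOS transgenic plants. ZAT10 averaged 8.64 ± 0.00609 in nNOS control plants and 7.50 ± 0.101 in WT control plants (SD, n = 2 each), a difference of 1.15 (SE 0.105) or 2.21-fold with an adjusted p of 7.57e-05 in limma. ERF4 averaged 9.76 ± 0.0780 in nNOS control plants and 8.36 ± 0.0437 in WT control plants, a difference of 1.39 (SE 0.101) or 2.63-fold with an adjusted p of 2.22e-05 in limma. Calling a gene changed took a difference of at least 1 in size together with an adjusted p no higher than 0.05, and 0.972% of all probe sets were called higher in this comparison. By size of the rise ERF4 ranked 41 and ZAT10 ranked 117 among all probe sets.

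Both genes stand in a list that the study drew up from these arrays with this comparison, to set the transgene beside treatment with a nitric oxide donor, so their rise here is not independent evidence. Of the 28 genes of that list, 22 were matched to a probe set, and 17 of these were called higher and 4 lower in nNOS control plants, where 1.18% of all probe sets were called lower. ERF4 had the 3rd and ZAT10 the 7th highest difference among the 22.

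The nNOS control arrays also differed in the array's own controls, transcripts of bacterial origin meant to be added in fixed amounts. The 24 poly-A control probe sets averaged 6.50 and 6.65 on the nNOS drought arrays, 8.98 and 9.40 on the nNOS control arrays, 6.11 and 6.04 on the WT drought arrays, and 6.88 and 6.88 on the WT control arrays. ERF4 followed these controls closely over the 8 arrays (Pearson r = 0.99), and ZAT10 did not (r = 0.17). The same held for the 18 hybridization controls, with r = 0.98 for ERF4 and r = 0.19 for ZAT10. These correlations are descriptive, since arrays of a group share their treatment and their preparation.

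**Figure D2:**
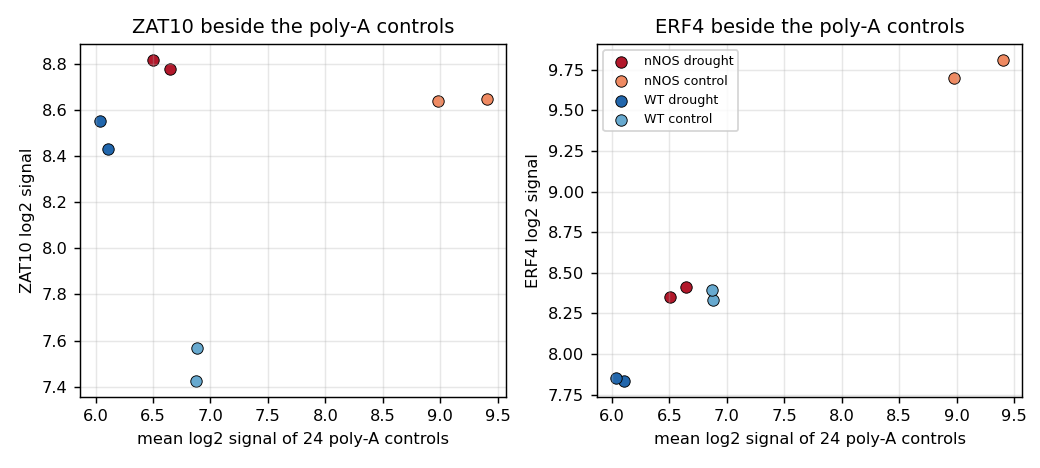
Log2 signal of ZAT10 (left) and ERF4 (right) on the y axis against the mean log2 signal of the 24 poly-A controls on the x axis; each point is 1 of the 8 arrays, coloured by group. ERF4 rises along with the controls over the arrays (r = 0.99), while the ZAT10 points show no such line (r = 0.17).

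The part of this difference between arrays in the ERF4 result was not tested. In bulk leaf RNA, more transcript per cell and more cells that express the gene cannot be told apart. Among cell type markers, RCA, the activase of the carbon-fixing enzyme of mesophyll, was the 1 of 8 mesophyll markers that could be named, and its signal was between 12.8 and 13.1 on all arrays. Of 13 genes of the tapetum, a cell layer of the anther that leaf samples should lack, 4 could be measured through the platform annotation. By the adjusted p in limma 2 of them were lower in nNOS control against WT control plants, as were 17.9% of all probe sets. In WT drought against WT control plants 2 were lower, as were 4.92% of all probe sets. Summed on the linear scale and returned to log2, the signals of these 4 genes were 5.26 and 5.28 on the nNOS drought arrays, 4.84 and 4.93 on the nNOS control arrays, 5.66 and 5.71 on the WT drought arrays, and 7.30 and 7.49 on the WT control arrays. The largest share came from AT1G66850, whereas the tapetum regulator AMS and the tapetum gene A9 were dim everywhere, with group means between 2.18 and 2.98.

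Markers of other leaf states and cells also moved with the groups. FAMA, a regulator of guard cell formation and the 1 of 7 guard cell markers measured, was lower by 0.64 in nNOS control against WT control plants (adjusted p = 0.00275 in limma) and by 0.52 in nNOS drought against WT drought plants (adjusted p = 0.0256, missed with any 1 of the 4 arrays left out). EXPA7, a root hair expansin and the 1 of 7 root markers measured, was dim and lower by 0.61 in nNOS drought against nNOS control plants (adjusted p = 0.0232 in limma, missed in 3 of 4 fits with 1 array left out). SAG29, a sugar transporter gene of senescing leaves and the 1 of 6 senescence markers measured through the annotation, was higher by 0.57 in nNOS drought against nNOS control plants (adjusted p = 0.0469 in limma, missed in 3 of 4 fits with 1 array left out).

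The senescence genes SAG12 and SEN1 were named from the table of called genes as examples. SAG12, a cysteine protease gene of senescing leaves, was lower by 1.41 in nNOS control against WT control plants, and higher by 1.75 in nNOS drought against nNOS control plants and by 1.27 in WT drought against WT control plants. SEN1, a gene induced by darkness and senescence, was lower by 2.89 in nNOS drought against nNOS control plants and by 1.81 in WT drought against WT control plants.

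RNA quality can be read in part from the signal of the 3′ end of GAPDH minus that of its 5′ end, which was 0.636 and 0.865 on the nNOS drought arrays, 1.055 and 1.449 on the nNOS control arrays, 0.640 and 0.782 on the WT drought arrays, and 1.32 and 1.02 on the WT control arrays. The GAPDH difference was thus lower on the drought arrays of both genotypes, and over the 8 arrays its r was 0.67 with ERF4 and -0.36 with ZAT10. For actin the same measure was 3.07 and 2.91 on the nNOS drought arrays and 2.97 and 2.96 on the nNOS control arrays. On the WT drought arrays it was 3.63 and 3.58, and on the WT control arrays 3.03 and 3.41. The actin difference was thus highest on the WT drought arrays and was lower with drought in neither genotype. The part of these markers and of RNA quality in the ZAT10 and ERF4 values was not tested.

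After water was withheld from WT plants, the genes moved in opposite directions. ZAT10 averaged 8.49 ± 0.0842 in WT drought plants and 7.50 ± 0.101 in WT control plants, a difference of 1.00 (SE 0.105, 95% interval 0.76 to 1.23) with an adjusted p of 0.000356 in limma. At 1.99-fold this rise lay just under the fold threshold, where 31 probe sets had differences between 0.9 and 1 and 25 had differences between 1 and 1.1. By size it ranked 77 among all probe sets, of which 5.97% were higher by the adjusted p alone and 0.33% also passed the fold threshold. ERF4 averaged 7.84 ± 0.0117 in WT drought plants and 8.36 ± 0.0437 in WT control plants, so that it fell by 0.52 (SE 0.101, adjusted p = 0.0114 in limma). By the adjusted p alone, 4.92% of probe sets were lower and 0.347% also passed the fold threshold. The fall of ERF4 missed the adjusted p when either WT drought or either WT control array was left out, with values between 0.0611 and 0.117, while its size stayed between -0.55 and -0.49. The poly-A controls were lower by 0.81 in the same comparison.

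In nNOS transgenic plants drought was followed by a fall of ERF4 and by no detectable change of ZAT10. ERF4 averaged 8.38 ± 0.0443 in nNOS drought plants and 9.76 ± 0.0780 in nNOS control plants, and it fell by 1.37 (SE 0.101), to 0.386 of the level in watered plants, with an adjusted p of 1.14e-05 in limma. It was called, as were 1.16% of probe sets in that direction, and it ranked 80 from the lowest difference. The poly-A controls were lower by 2.62 in this comparison. ZAT10 averaged 8.80 ± 0.0284 in nNOS drought plants and 8.64 ± 0.00609 in nNOS control plants, a difference of 0.15 with a 95% interval from -0.08 to 0.39 (adjusted p = 0.315 in limma). A rise of ZAT10 as large as in WT plants lies outside this interval.

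The drought response of each gene differed between the genotypes. The response in nNOS transgenic plants minus that in WT plants was -0.84 for ZAT10 (SE 0.148, 95% interval -1.17 to -0.51, adjusted p = 0.0147 in limma) and -0.85 for ERF4 (SE 0.143, 95% interval -1.17 to -0.54, adjusted p = 0.0129 in limma). By the adjusted p alone, 1.75% of probe sets had such a lower response in nNOS transgenic plants and 3.64% a different response in either direction. The sizes were nearly equal for both genes, but for ZAT10 it was a rise in WT plants that had no counterpart in nNOS transgenic plants, and for ERF4 a fall that was larger in nNOS transgenic plants. Both genes stand in the study's list drawn up from nNOS control against WT control plants. That difference enters this value with a minus sign, so the choice itself favours a lower response. Of the 22 matched genes of that list, 15 were lower and 2 higher by the adjusted p in limma, with a median of -0.84. ZAT10 had the 12th and ERF4 the 13th highest value among them. With single arrays left out, 5 of 8 fits for ZAT10 and 4 of 8 for ERF4 missed the adjusted p, with values between 0.0616 and 0.103.

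**Figure D3:**
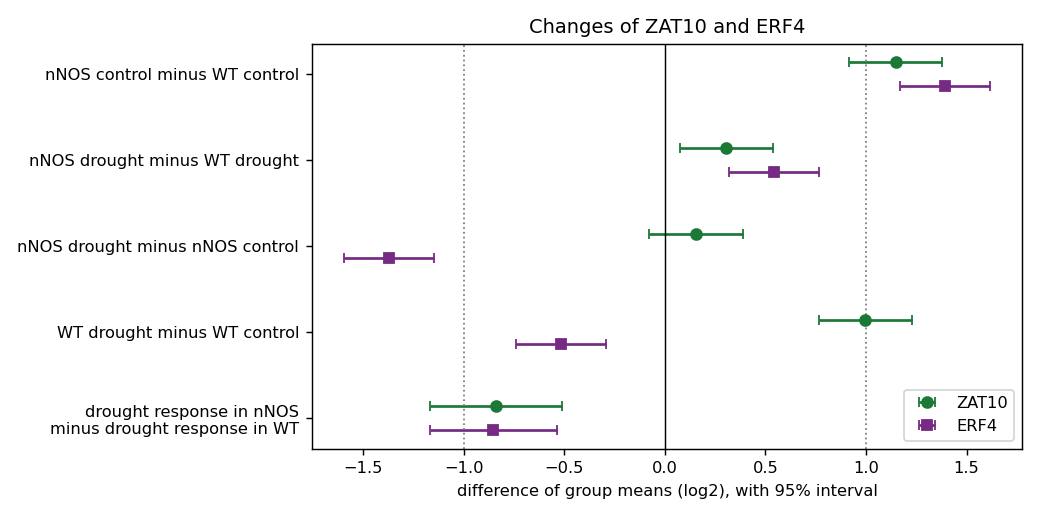
Differences between group means of ZAT10 (circles) and ERF4 (squares) on the x axis (log2) for the 5 comparisons down the y axis, with 95% intervals from limma; dotted lines mark a difference of 1 in either direction. In WT plants drought raised ZAT10 by 1.00 and lowered ERF4 by 0.52, and the bottom row shows that both responses were lower in nNOS transgenic plants, by nearly the same amount.

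Under drought, ERF4 was again higher in nNOS transgenic plants, while ZAT10 missed the test. ERF4 averaged 8.38 ± 0.0443 in nNOS drought plants and 7.84 ± 0.0117 in WT drought plants, a difference of 0.54 (SE 0.101, adjusted p = 0.0138 in limma), and 3.68% of probe sets were higher by the adjusted p alone while 0.0176% also passed the fold threshold. Leaving out any 1 of the 4 arrays gave adjusted p values between 0.0546 and 0.158. The poly-A controls were higher by 0.50 and the hybridization controls by 0.25 in nNOS drought against WT drought arrays, and their part was not tested. ZAT10 averaged 8.80 ± 0.0284 in nNOS drought plants and 8.49 ± 0.0842 in WT drought plants. This difference of 0.31 (95% interval 0.07 to 0.54) missed the adjusted p at 0.0836 in limma. Under other processing settings the adjusted p of this ZAT10 difference was between 0.0266 and 0.442.

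The order of the levels was thus nNOS drought, nNOS control, WT drought and WT control for ZAT10, from highest to lowest. Neighbours among the first 3 groups missed the adjusted p, although their arrays did not overlap: the nNOS drought minus nNOS control difference was 0.15, as given above, and the nNOS control minus WT drought difference was 0.15 (95% interval -0.08 to 0.38, adjusted p = 0.248 in limma). The nNOS drought and WT control groups, at the ends of this order, differed by 1.301 (adjusted p = 4.61e-05 in limma). The sizes of that difference and of the rise in WT drought plants are differences between group means other than that of nNOS control. Their adjusted p values do involve the nNOS control arrays, because the model took its variance from the arrays of all groups. The part of the nNOS control arrays in these ZAT10 values was not tested. For ERF4 the nNOS control group came first, followed by nNOS drought, then WT control, with WT drought last. The nNOS drought minus WT control difference was 0.02 (95% interval -0.20 to 0.25, adjusted p = 0.923 in limma), and the nNOS control minus WT drought difference was 1.91 (adjusted p = 6.94e-07 in limma).

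Taken within arrays, where a shift common to all probes cancels, ZAT10 gained on ERF4 by 1.53 in nNOS drought against nNOS control plants and by 1.51 in WT drought against WT control plants. Between genotypes ZAT10 lost 0.25 to ERF4 in control plants and 0.23 in drought plants. Over the 8 arrays the signals of both genes were weakly correlated (r = 0.23, Spearman rho = 0.40), a description over arrays that share groups.

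The genes most like ZAT10 were sought among probe sets of 1 named gene with group means spanning at least 1, of which 1022 were compared. Only 15 had a Pearson r of at least 0.9 over the 8 arrays and 20 an r of at most -0.9. The 6 nearest were AT1G23040 (r = 0.988), AT1G24140 (r = 0.979), AT5G03350 (r = 0.978), ENODL1 (r = 0.963), YLS9 (r = 0.948) and ATRER1C1 (r = 0.943). AT1G24140 is annotated as a matrixin-type metalloproteinase and ENODL1 as an early nodulin-like protein. YLS9 belongs to a family of harpin-induced proteins known from senescence and defence. In WT plants their drought differences were between 0.62 for ATRER1C1 and 1.42 for ENODL1, and in nNOS transgenic plants between -0.17 for ATRER1C1 and 0.26 for YLS9. ENODL1, for instance, averaged 6.35 in nNOS drought, 6.37 in nNOS control, 6.23 in WT drought and 4.81 in WT control plants, low in the last group alone.

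The shape of ERF4 was far more common among these probe sets, which were kept for group means spanning at least 1. This filter favours shapes set by the nNOS control group. In nNOS control against WT control plants 221 probe sets were called higher and 269 lower, against 75 and 79 in WT drought against WT control plants. Of the 1022 probe sets, 289 had an r of at least 0.9 with ERF4 and 256 an r of at most -0.9. A similar number, 293 of 1023, had an r of at least 0.9 with the mean of the poly-A controls. The 6 nearest to ERF4 were 2A6, AT5G66590, AT2G01410, AT3G63220, psbN and AT4G30010, with r between 0.995 and 0.996. psbN is a gene of the chloroplast genome and 2A6 encodes a protein of the oxygenase family that includes ethylene-forming enzymes. 2A6 averaged 8.62 in nNOS drought, 9.92 in nNOS control, 8.19 in WT drought and 8.66 in WT control plants. Ranked by Spearman's rho, 0 of the 6 genes nearest to ZAT10 and 1 of the 6 nearest to ERF4 stayed among the first 6, so the choice of names depends on the measure.

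**Figure D4:**
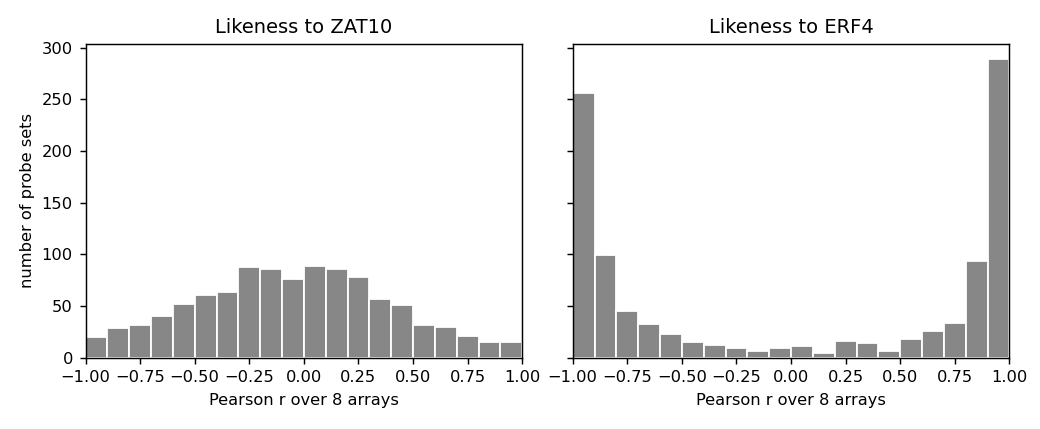
Number of probe sets (y axis) by their Pearson r over the 8 arrays (x axis) with ZAT10 (left) and ERF4 (right), among 1022 probe sets of 1 named gene with group means spanning at least 1. Values for ZAT10 gather around 0, with 15 at or above 0.9, while those for ERF4 pile up at both ends, with 289 at or above 0.9 and 256 at or below -0.9.

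Other members of both families could be followed only in part. Of 11 zinc finger genes of the ZAT10 type, 3 could be measured, and ZAT10 itself was the 1 that was higher by the adjusted p in nNOS control against WT control plants (13.0% of all probe sets) and in WT drought against WT control plants (5.97%). ZAT5 differed by -0.25 in nNOS control against WT control plants (adjusted p = 0.0855 in limma) and ZAT18 was dim, with group means between 2.35 and 2.70. None of the listed EAR-type or activator-type ERF genes was named in the platform annotation. From the study's table of called genes 15 further entries were taken besides ERF4. They are its AP2 and ethylene entries of 1 locus, and the C2H2 gene AT2G28710, which was picked singly. Other C2H2 genes of that table were not gathered. The table holds only genes that were called somewhere, so these entries serve as examples.

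ERF7, another EAR-type repressor of this family, had nearly the profile of ERF4. It averaged 7.95 in nNOS drought, 9.19 in nNOS control, 7.52 in WT drought and 7.93 in WT control plants. ERF7 missed the adjusted p where ERF4 passed it, in WT drought against WT control plants (-0.42, adjusted p = 0.0772 in limma). The same held in nNOS drought against WT drought plants (0.43, adjusted p = 0.0667 in limma). It was called higher in nNOS control against WT control plants (1.25, adjusted p = 0.000153 in limma) and lower in nNOS drought against nNOS control plants (-1.24, adjusted p = 0.000171 in limma). The C2H2 gene AT2G28710 differed by 1.44 and -1.43 in the same comparisons, and CBF1, an activator of cold and drought response genes, by 1.50 and -1.98. Of the 15 entries besides ERF4, 4 were called higher and 1 lower in nNOS control against WT control plants (0.972% and 1.18% of all probe sets). In nNOS drought against nNOS control plants 4 were called higher and 9 lower (0.809% and 1.16%). These counts follow from a table of called genes. The activators ERF2 and ERF105 did not share the profile of ERF4, though the activator CBF1 was near it. ERF2, which activates defence genes, was higher by 1.25 in nNOS drought against nNOS control plants (adjusted p = 4.43e-05 in limma) and by 0.64 in WT drought against WT control plants (adjusted p = 0.0067 in limma, missed in 3 of 4 fits with 1 array left out). ERF105 was nearer to ZAT10 in its drought responses, with a rise of 1.05 in WT drought against WT control plants. Its difference was 0.19 in nNOS drought against nNOS control plants (adjusted p = 0.193 in limma). Between genotypes it was less like ZAT10, with 0.54 in nNOS control against WT control plants. In nNOS drought against WT drought plants it was -0.33 (adjusted p = 0.0591 in limma).

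PDF1.2, the plant defensin gene whose expression ERF4 is known to lower, ran opposite to ERF4. Its signals were 9.66 and 9.60 on the nNOS drought arrays, 7.92 and 8.25 on the nNOS control arrays, 9.98 and 10.005 on the WT drought arrays, and 9.50 and 9.41 on the WT control arrays. It was lower by 1.36 in nNOS control against WT control plants (adjusted p = 7.03e-05 in limma), and higher by 1.54 in nNOS drought against nNOS control plants (adjusted p = 1.96e-05 in limma) and by 0.54 in WT drought against WT control plants (adjusted p = 0.0201 in limma). That last rise missed the adjusted p with any 1 of the 4 arrays left out, with values between 0.0842 and 0.136. PDF1.2 has near-identical copies, and its probe set may also read those. A course opposite to ERF4 was common among probe sets with group means spanning at least 1. Of the 1022 compared with ERF4, 256 had an r of at most -0.9, and the filter favours shapes set by the nNOS control group. With the mean of the poly-A controls, 234 of 1023 had such an r. Whether ERF4 had a part in the PDF1.2 values was not tested. CHI-B, a basic chitinase of ethylene-dependent defence, differed by -0.74 in nNOS control against WT control plants and by 1.17 in nNOS drought against nNOS control plants. It did not run opposite to ERF4 throughout. The CHI-B difference was 0.08 in WT drought against WT control plants (adjusted p = 0.658 in limma). In nNOS drought against WT drought plants it was 0.35 (adjusted p = 0.0643 in limma), the sign of ERF4.

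FSD1, an iron superoxide dismutase reported to be higher in plants with more ZAT10, was higher by 1.11 in nNOS control against WT control plants, as ZAT10 was. It was also higher by 2.13 in WT drought against WT control plants and by 1.23 in nNOS drought against nNOS control plants (adjusted p = 4.99e-05 in limma), where ZAT10 did not pass the test. COR15A, a chloroplast protein gene induced by cold and drought, was higher by 0.64 in nNOS drought against nNOS control plants and by 0.51 in WT drought against WT control plants, and differed by -0.16 in nNOS control against WT control plants. These comparisons share the nNOS control and WT control arrays with those of ZAT10 and ERF4, and CHI-B and FSD1 were named from the table of called genes.

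**Figure D5:**
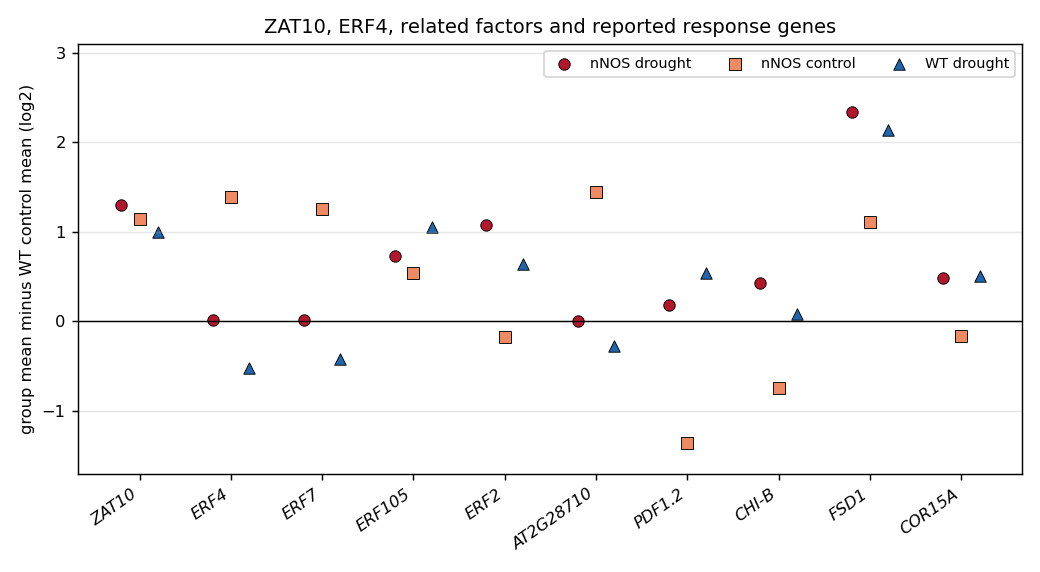
Mean log2 signal of the nNOS drought (circles), nNOS control (squares) and WT drought (triangles) groups minus the WT control mean (y axis, 0 line) for ZAT10, ERF4, 4 related transcription factors and 4 genes reported to respond to such factors (x axis); 2 arrays per group. ERF7 lies like ERF4, with the nNOS control mean at the top (1.25 and 1.39), and PDF1.2 has its nNOS control mean at the bottom, 1.36 below the WT control mean.

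Of the 103 genes in the lists of related factors, partners, reported response genes, early stress genes and clock genes, 10 could be measured through the platform annotation, ZAT10 among them. Of the other 9, 0 were higher and 1 lower in nNOS control against WT control plants by the adjusted p in limma (median difference 0.000662, against 0.00889 over all probe sets). In nNOS drought against nNOS control plants 3 were higher and 1 lower, with a median of -0.19 against -0.02 over all probe sets. In WT drought against WT control plants 4 were higher and 0 lower (median 0.15 against -0.04), and in nNOS drought against WT drought plants 0 were higher and 2 lower (median -0.15 against 0.04). In either direction 30.9%, 24.9%, 10.9% and 10.7% of all probe sets passed the adjusted p in these comparisons, in that order. The 4 that were higher in WT drought plants, as ZAT10 was, were PDF1.2, COR15A, the clock gene GI and the calmodulin-like gene CML38. With any 1 of the 4 arrays left out PDF1.2, COR15A and GI missed the adjusted p, and CML38 missed it in 2 of the 4 fits. WRKY53, a regulator of leaf senescence, was lower by 0.97 in nNOS drought against nNOS control plants and by 0.72 in nNOS drought against WT drought plants. EIN3, the master activator of ethylene responses and thus upstream of many ERF genes, was lower by 0.67 in nNOS drought against WT drought plants (adjusted p = 0.0111 in limma), where ERF4 was higher. The EIN3 difference missed the adjusted p with any 1 of the 4 arrays left out, with values between 0.0529 and 0.123, as did that of WRKY53 in the same comparison, with values between 0.0554 and 0.161.

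Early stress genes named from the table of called genes shared a profile only in part. ATL31, ATL6 and PBP1 were higher in nNOS control against WT control plants, ATL6 by 1.13 and PBP1 by 1.11, and JAZ10 was not. ATL6 was lower by 1.06 in nNOS drought against nNOS control plants. It is left out of the counts of named genes below. ATL31, a ubiquitin ligase of carbon and nitrogen balance and defence, was higher by 1.49 in nNOS control against WT control plants and lower by 1.23 in nNOS drought against nNOS control plants, and differed by 0.20 in WT drought against WT control plants (adjusted p = 0.231 in limma). PBP1, a calcium-binding partner of the PINOID kinase, rose by 0.55 in WT drought against WT control plants (adjusted p = 0.0173 in limma, missed in 3 of 4 fits with 1 array left out), the direction of ZAT10, but was lower by 0.92 in nNOS drought against nNOS control plants. JAZ10, a repressor of jasmonate responses, fell in both genotypes, by 0.60 in nNOS drought against nNOS control plants (adjusted p = 0.0188 in limma, missed in 2 of 4 fits with 1 array left out) and by 1.17 in WT drought against WT control plants (adjusted p = 0.00185 in limma), and differed by -0.15 in nNOS control against WT control plants (adjusted p = 0.515 in limma).

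Within the study's donor-related list, ZAT10 and ERF4 stood near opposite ends after drought in WT plants. In nNOS transgenic plants ERF4 stood near the bottom, while the ZAT10 difference of 0.15 missed the adjusted p (0.315 in limma). Among the 22 matched genes ZAT10 had the 2nd highest and ERF4 the 21st difference in WT drought against WT control plants, and ZAT10 the 5th and ERF4 the 21st in nNOS drought against nNOS control plants. AT1G24140, also 1 of the 6 genes most like ZAT10, was the 1 list gene called higher in WT drought plants, with means of 6.82 in WT drought and 5.62 in WT control plants (adjusted p = 0.000245 in limma). In nNOS drought against nNOS control plants 2 of the 22 were called higher and 7 lower (0.809% and 1.16% of all probe sets), and ERF4 was one of those 7.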

How the data were processed

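Leaf RNA of 4 groups was measured on 8 ATH1 arrays. The authors extracted the signals with Affymetrix software and compared the arrays with affylmGUI, and they deposited normalized log2 signals; which normalization was used is not given in the sources used here. A linear model with a mean for each of the 4 groups was fitted to the deposited values in limma 3.58.1 (R 4.3.3), with eBayes moderation. Benjamini-Hochberg adjustment covered all 22810 probe sets, and 64 control probe sets of the manufacturer were dropped from the counts. Calls needed a difference of at least 1 in size and an adjusted p no higher than 0.05, the thresholds of the study. The model was tested on simulated data with known changes. Arrays give no read depth, and their number, 2 per group, limits the precision. Dim signals may be background, which was not measured separately.

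Of the probe sets, 13484 were named through the platform annotation (1 gene each) and 245 more through 567 entries of the study's table of called genes. Names from that table serve as examples only. The members and the gene lists were chosen with earlier results of these data known. Named genes are both members, up to 4 genes of each list, genes called or named from the table as examples after their values were seen, and the 6 probe sets with the highest Pearson r with each member. Spearman's rho was added as a measure of likeness after the data were seen. Alternatives were other normalizations, moderation, array weights, fits on the compared groups alone, a filter on dim probe sets, other thresholds, the replicate number as a block, and leaving out each array.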

Additional observations from a re-analysis of the deposited data

Results flagged for a closer look

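Among 36 named genes, 22 had a drought response that differed between the genotypes by the interaction term of the limma model, given here as the response in nNOS transgenic plants minus the response in WT plants. ZAT10 (-0.84, adjusted p = 0.0147) and ERF4 (-0.85, adjusted p = 0.0129) were among them. Over all probe sets 3.64% passed in either direction, but 9 of the 22 were chosen for likeness to ZAT10 or ERF4 and others after their values were seen, so this count follows from the choice of genes. With 1 array left out, 15 of the 22 missed the adjusted p at least once, ERF7 in 7 of 8 fits and PDF1.2 in 6 of 8. All these values rest on the nNOS control and WT control arrays, and the poly-A controls were lower by 2.62 in nNOS drought against nNOS control arrays and by 0.81 in WT drought against WT control arrays. Their part was not tested.

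Of the related factors, ERF7 differed by -0.82 (adjusted p = 0.0449), ERF105 by -0.86, AT2G28710 by -1.15 and CBF1 by -1.32. Of the reported response genes, PDF1.2 differed by 1.00 and CHI-B by 1.09, the opposite sign to ERF4, and FSD1 by -0.90. The early stress genes ATL31 and PBP1 differed by -1.43 and -1.46. The tapetum gene AT1G66850 had a value of 2.80 and the senescence gene SEN1 a value of -1.08.

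The 6 genes most like ZAT10 also had lower responses in nNOS transgenic plants, which their likeness to ZAT10 implies: -0.97 for AT1G23040, -1.23 for AT1G24140, -0.88 for AT5G03350, -1.45 for ENODL1, -1.04 for YLS9 and -0.79 for ATRER1C1. Of the 6 most like ERF4, 2A6 (-0.83), AT5G66590 (-0.66) and AT3G63220 (-0.65) passed the adjusted p.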

How the results depend on the processing

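Over 10 results for ZAT10 and ERF4 and 146 alternative settings, 0 reversed and 139 gave the same call by fold and adjusted p together. By the adjusted p alone 17 settings lost a difference, each with 1 array left out, and 4 gained one. Of the results that passed at 0.05, 4 missed a stricter adjusted p of 0.01. The fold threshold set most of the other values: with the adjusted p alone, the ZAT10 rise in WT drought against WT control plants (1.00) and its interaction (-0.84), and for ERF4 the fall in WT drought against WT control plants (-0.52), the difference between nNOS drought and WT drought plants (0.54) and the interaction (-0.85), would all be called. The ZAT10 rise in WT plants was between 0.92 and 1.07 with single arrays left out, and it passed the fold threshold without the first WT control array (1.07) and without the first WT drought array (1.05). In nNOS control against WT control plants the difference was between 1.08 and 1.27 for ZAT10 and between 1.34 and 1.50 for ERF4 over all settings run, and the fall of ERF4 in nNOS drought against nNOS control plants between -1.50 and -1.32. The ZAT10 difference between nNOS drought and WT drought plants, which missed the adjusted p, passed it after median centring, with trend and robust moderation (0.0266), with array weights and with dim probe sets left out. The fit on the compared groups alone gave no interaction, which needs all 4 groups.

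Of the 9 other listed genes, 2 instead of 1 passed the adjusted p in nNOS control against WT control plants after quantile, median-centred or cyclic loess normalization and with dim probe sets left out, and between 1 and 2 with single arrays left out. In WT drought against WT control plants the count of 4 became 1 at the stricter adjusted p of 0.01 and lay between 0 and 1 with single arrays left out. In nNOS drought against WT drought plants the count of 2 became 4 with array weights, with the compared groups alone or with dim probe sets left out, and 0 at that stricter adjusted p or with any single array left out.

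Other normalizations shifted the split of calls in nNOS control against WT control plants from 221 higher and 269 lower to 303 and 186 (quantile), 338 and 152 (median-centred) and 353 and 139 (cyclic loess), and the median of all genes by over 0.1, to 0.11, when arrays were centred on their medians. In nNOS drought against nNOS control plants cyclic loess gave 132 higher and 358 lower in place of 184 and 263, and in nNOS drought against WT drought plants 4 higher and 16 lower became 11 and 8, 16 and 7, and 13 and 11, in the same order of methods. ZAT10 and ERF4 kept their directions.

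The labels share replicate numbers between groups, but differences between the 2 arrays of a group correlated only between -0.06 and 0.11 across groups. No shift shared by equal replicate numbers was thus seen, though this cannot settle whether samples were handled in pairs. With the replicate number as a block, the differences in nNOS control against WT control plants were 1.15 for ZAT10 and 1.39 for ERF4, and no count of calls in the 4 comparisons of groups changed, while the interactions of AT5G66590 and AT3G63220 narrowly missed the adjusted p. For the other named genes, 100 differences that passed the adjusted p were refitted in 1356 settings, where 0 reversed and 38 missed the adjusted p at least once, among them the interaction of ERF7 after quantile normalization. Without single nNOS control arrays 3 or 5 of the 6 genes most like ZAT10 and 2 or 3 of those most like ERF4 remained.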
